A study of Mus musculus with 18 samples.

Results

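Tenm2, Tenm3 and Tenm4 encode 3 of the 4 mouse teneurins, and their binding sites for Pitx1 and Tbx5 in the limb bud were examined in 2 lists of summits, a summit being the highest point of a ChIP-seq peak. A summit belonged to one of these genes when that gene was the nearest protein-coding gene and lay within 100 kb, with distance 0 for a summit inside the gene. By this rule the 3 genes, of 21887 protein-coding genes, took 188 of 54941 Pitx1 summits and 37 of 10273 Tbx5 summits. The genes were chosen by how many summits they hold in these lists, by their scores and by their shared sites, so the counts, densities and shares below are descriptions and carry no test. The Pitx1 list came from hindlimb buds of wild type CD1 embryos, an outbred strain, at e11.5, and the Tbx5 list from forelimb buds of the same genotype and strain at e10.5. Each list is 1 sample made with a homemade antibody, so no value has a replicate error, and limb, stage, factor and antibody cannot be told apart. The 16 other samples of the series, on histone marks and inputs, were not analysed here. Read depth is unknown, and 95% intervals cover the counting of summits only. They treat summits as independent, which summits of 1 locus are not, so they may be too narrow.

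Teneurins are large adhesion proteins that cross the cell membrane once and act as pairs. Their outer part carries epidermal growth factor-like repeats, a beta propeller and a barrel of tyrosine and aspartate-rich repeats, and it binds latrophilins, which are adhesion G protein-coupled receptors, on the facing cell. They are best known for matching nerve cells during wiring of the brain. In mouse, Tenm3 guides visual and hippocampal connections, Tenm4 acts in the myelin-forming cells and restrains cartilage differentiation, and Tenm2 is found at synapses. Pitx1, a homeodomain protein, helps to give the hindlimb its identity, and Tbx5 is a T-box transcription factor needed for outgrowth of the forelimb bud.

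The 3 genes are long, and each borders a wide stretch with no protein-coding gene on its 5′ side. Tenm2 lies on chromosome 11 from 36006656 to 37237053 on the minus strand of mm10 and spans 1230 kb. Tenm3 lies on chromosome 8 from 48225665 to 49522824 on the minus strand and spans 1297 kb. Tenm4 lies on chromosome 7 from 96171244 to 96911093 on the plus strand and spans 739.9 kb. On the 5′ side the next protein-coding gene was 3442 kb away for Tenm2 (Mat2b), 3989 kb for Tenm3 (Aga) and 2987 kb for Tenm4 (Gm15501). On the 3′ side the neighbours were close, at 26.1 kb for Wwc1, 84.0 kb for Dctd and 39.8 kb for Nars2. A gap of at least 2 Mb on one side was found at 34 (9.69%) of the 351 protein-coding genes whose domain, the sequence nearest to them within 100 kb, measured at least 500 kb. These 351 genes, the 3 included, are called long-domain genes below.

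All 3 genes held summits of both factors, which 16.8% of all protein-coding genes did (54.5% had a Pitx1 summit and 18.7% a Tbx5 summit). Among long-domain genes a summit was usual, with 96.6% holding at least 1 Pitx1 summit and 81.5% at least 1 Tbx5 summit. At Tenm2 there were 44 for Pitx1 and 2 for Tbx5. At Tenm3 there were 83 for Pitx1, the count of rank 3 among all genes, and 14 for Tbx5. At Tenm4 there were 61 for Pitx1 and 21 for Tbx5, the second of these again of rank 3. The Tbx5 counts thus differed widely between 3 genes that were all occupied by Pitx1.

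Correcting for length changed the order of the genes. Per Mb of domain, Pitx1 summits numbered 70.9 at Tenm4 (95% interval 54.3 to 91.1), 57.7 at Tenm3 (45.9 to 71.5) and 32.8 at Tenm2 (23.8 to 44.0), against 23.5 over all protein-coding domains. The ratios to all domains were 3.02 (2.31 to 3.89) for Tenm4, 2.46 (1.96 to 3.05) for Tenm3 and 1.40 (1.01 to 1.87) for Tenm2. The intervals of Tenm4 and Tenm3 overlapped. That of Tenm2 ended at 44.0, below both, but close to the 45.9 where that of Tenm3 began. By density, Tenm4 ranked 20, Tenm3 33 and Tenm2 87 among the 351 long-domain genes, whose median was 15.7 per Mb. The densest of them for Pitx1 were Mecom (115.4 per Mb), Rad51b (110.5), Dnm3 (107.0), Ebf1 (91.0) and Auts2 (85.8). A Pitx1 density of at least 2 times that of all domains was met by Tenm3 and Tenm4, and by 19% of all genes with a domain and 14.8% of the long-domain genes.

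For Tbx5 the order of the genes was the same. Tenm4 held 24.4 Tbx5 summits per Mb (95% interval 15.1 to 37.3), Tenm3 9.73 (5.32 to 16.3) and Tenm2 1.49 (0.180 to 5.38), against 4.15 over all domains. The ratios were 5.89 (3.65 to 9.0) for Tenm4, 2.35 (1.28 to 3.94) for Tenm3 and 0.359 (0.0435 to 1.30) for Tenm2. Tenm4 ranked 7, Tenm3 52 and Tenm2 247 of the long-domain genes, after Lrmda (46.0 per Mb), Mecom (31.3), Creb5 (26.3), Dennd1a (25.3) and Epha3 (24.97) at the top. Densities of at least 2 times that of all domains, as at Tenm3 and Tenm4, were met by 12.3% of all genes with a domain and 19.9% of the long-domain genes. The lists differ in length, and with the Pitx1 list cut to as many of its highest scores as the Tbx5 list has, the Pitx1 ratios were 5.6 at Tenm4, 3.18 at Tenm3 and 1.43 at Tenm2.

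**Figure D1:**
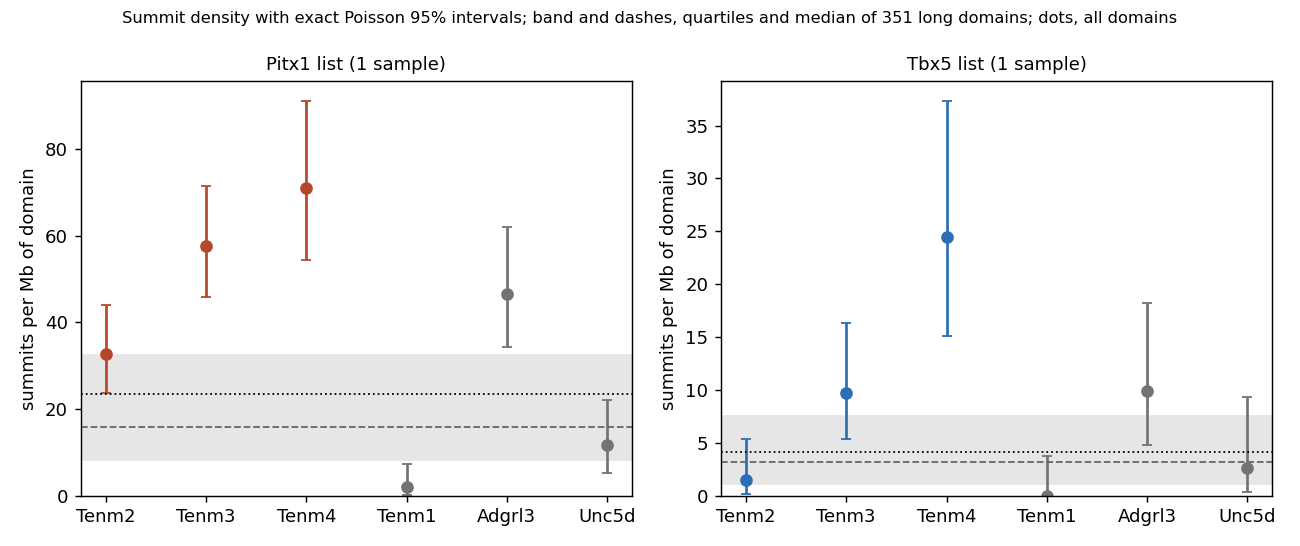
Summits per Mb of domain (vertical axes) for Pitx1 (left) and Tbx5 (right) at Tenm2, Tenm3, Tenm4 and the 3 partner genes with domains of at least 500 kb. Points are single samples with exact Poisson 95% intervals, the band and dashed line are the quartiles and median of the 351 long-domain genes, and the dotted line is the density over all domains; Tenm4 stands highest in both panels and Tenm2 falls below the dotted line for Tbx5 only.

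Peak numbers ran in genome order within every chromosome of both lists, with gaps in the numbering. What the absent numbers were is not stated in the labels. Numbers were counted from the first to the last deposited peak of each gene, so the numbers at both ends are present by construction. In these stretches 44 of 48 Pitx1 numbers were present for Tenm2, 83 of 97 for Tenm3 and 61 of 69 for Tenm4. These shares of 91.7%, 85.6% and 88.4% compare with 76.3%, 77.7% and 77.6% over their chromosomes. For Tbx5, 2 of 2 numbers were present at Tenm2, 14 of 16 at Tenm3 and 21 of 24 at Tenm4, and the last 2 shares of 87.5% compare with 54.1% and 57.2% over chromosomes 8 and 7. The 2 numbers of Tenm2 are the ends themselves. The genes were also chosen by how many deposited summits they hold, so high shares present are not separate from that choice. The part of the absent numbers in the density ratios was not tested.

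Most summits lay inside the genes, which also make up most of their domains. Inside the gene lay 42 of 44 Pitx1 summits at Tenm2, 75 of 83 at Tenm3 and 56 of 61 at Tenm4, and all 37 Tbx5 summits. For Pitx1 these shares were 95.5% (95% interval 84.5 to 99.4), 90.4% (81.9 to 95.8) and 91.8% (81.9 to 97.3), and the gene body made up 91.6% of the domain of Tenm2, 90.1% of that of Tenm3 and 86.1% of that of Tenm4, shares inside these intervals. RefSeq lists a start of Tenm2 at position 36944241, which is 293 kb inside the annotated gene, and the nearest Pitx1 summit was 18.8 kb from it. The annotated 5′ end of Tenm2, at 37237053, is not a listed start. A Pitx1 summit with a score of 3.35 lay 0.2 kb from that end, at 37236878. The start listed for Tenm3 at 48674690 lies 848 kb inside the gene, with a Pitx1 summit of score 12.2 at a distance of 3.30 kb. Tenm4 has 2 listed starts. The first, at 96171244, had its nearest Pitx1 summit 18.3 kb away, while the second, at 96211671, had one 253 bp downstream with a score of 4.32. The Tbx5 summit nearest to any of these starts lay 36.5 kb from that of Tenm3.

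The stretch before the second Tenm4 start is shown because it is the one listed start of the 3 genes with a summit of either factor within 1 kb. The annotated 5′ end of Tenm2 also has one within that distance, but has no listed start. Beside it are the stretches of a pair of genes from the partner list described below, shown because a summit lies inside them. Each covers the 250 bases before the start on the plus strand, from RefSeq on GRCm38.p6, the assembly that mm10 represents: chr7:96211421-96211670 for Tenm4, chr12:95691976-95692225 for Flrt2 and chr3:141465314-141465563 for Unc5c.
Tenm4: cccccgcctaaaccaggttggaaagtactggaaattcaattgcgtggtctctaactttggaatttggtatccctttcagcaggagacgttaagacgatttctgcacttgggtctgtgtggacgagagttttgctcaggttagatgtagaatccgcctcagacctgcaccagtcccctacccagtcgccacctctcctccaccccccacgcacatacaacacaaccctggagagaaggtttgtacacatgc
Flrt2: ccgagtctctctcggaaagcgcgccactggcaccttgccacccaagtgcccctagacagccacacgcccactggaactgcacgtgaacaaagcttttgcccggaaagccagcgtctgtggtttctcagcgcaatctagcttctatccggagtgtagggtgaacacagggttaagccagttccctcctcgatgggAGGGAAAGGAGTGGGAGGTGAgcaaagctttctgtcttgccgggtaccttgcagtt
Unc5c: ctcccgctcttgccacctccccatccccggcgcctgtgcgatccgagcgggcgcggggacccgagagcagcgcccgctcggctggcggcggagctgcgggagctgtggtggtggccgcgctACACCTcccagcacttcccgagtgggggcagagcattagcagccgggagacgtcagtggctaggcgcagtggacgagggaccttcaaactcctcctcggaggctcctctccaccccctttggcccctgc
Both strands were searched for TAATCC, a core of Pitx-type homeodomain sites, and AGGTGT, a core of T-box sites, letters that do not overlap each other here. Capitals in Unc5c mark ACACCT, the reverse complement of AGGTGT, which begins 129 bases before the start, while the Tbx5 summit (score 3.10) lies 113 bases before it. Capitals in Flrt2 mark the 10 bases on either side of a Pitx1 summit (score 6.49) that lies 46 bases before the start. Tenm4 holds neither core in this window and has no capitals. Of the 15 windows listed for the members and partners, AGGTGT occurred in those of Tenm2 and Unc5c and TAATCC in none. Of all 32851 promoter windows of this length, 11.8% held AGGTGT and 6.25% held TAATCC.

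At Tenm4 both factors lay mainly in the 3′ part of the gene. Cut into 5 equal parts from the 5′ end, the gene held 5, 4, 12, 21 and 14 Pitx1 summits and, for Tbx5, 1, 2, 4, 7 and 7. The last 2 parts held 35 of 56 Pitx1 summits (62.5%, 95% interval 48.6 to 75.1) and 14 of 21 Tbx5 summits (66.7%, 43.0 to 85.4). At Tenm3 the 5 parts held 14, 6, 15, 22 and 18 Pitx1 summits, but, for Tbx5, 1, 6, 3, 1 and 3. Its second part was thus the poorest in Pitx1 and the richest in Tbx5. At Tenm2 the parts held 5, 9, 5, 13 and 10 Pitx1 summits, and the 2 Tbx5 summits fell in the third and the fourth. The last 2 parts held 40 of 75 Pitx1 summits at Tenm3 (53.3%, 41.45 to 64.95) and 23 of 42 at Tenm2 (54.8%, 38.7 to 70.15). Both intervals overlap that of Tenm4 for Pitx1. No Tbx5 summit lay in the 693.4 kb at the 5′ end of Tenm2, which is 56.4% of the gene. The longest stretch of any of the genes without a Pitx1 summit was 116.5 kb, also in Tenm2.

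**Figure D2:**
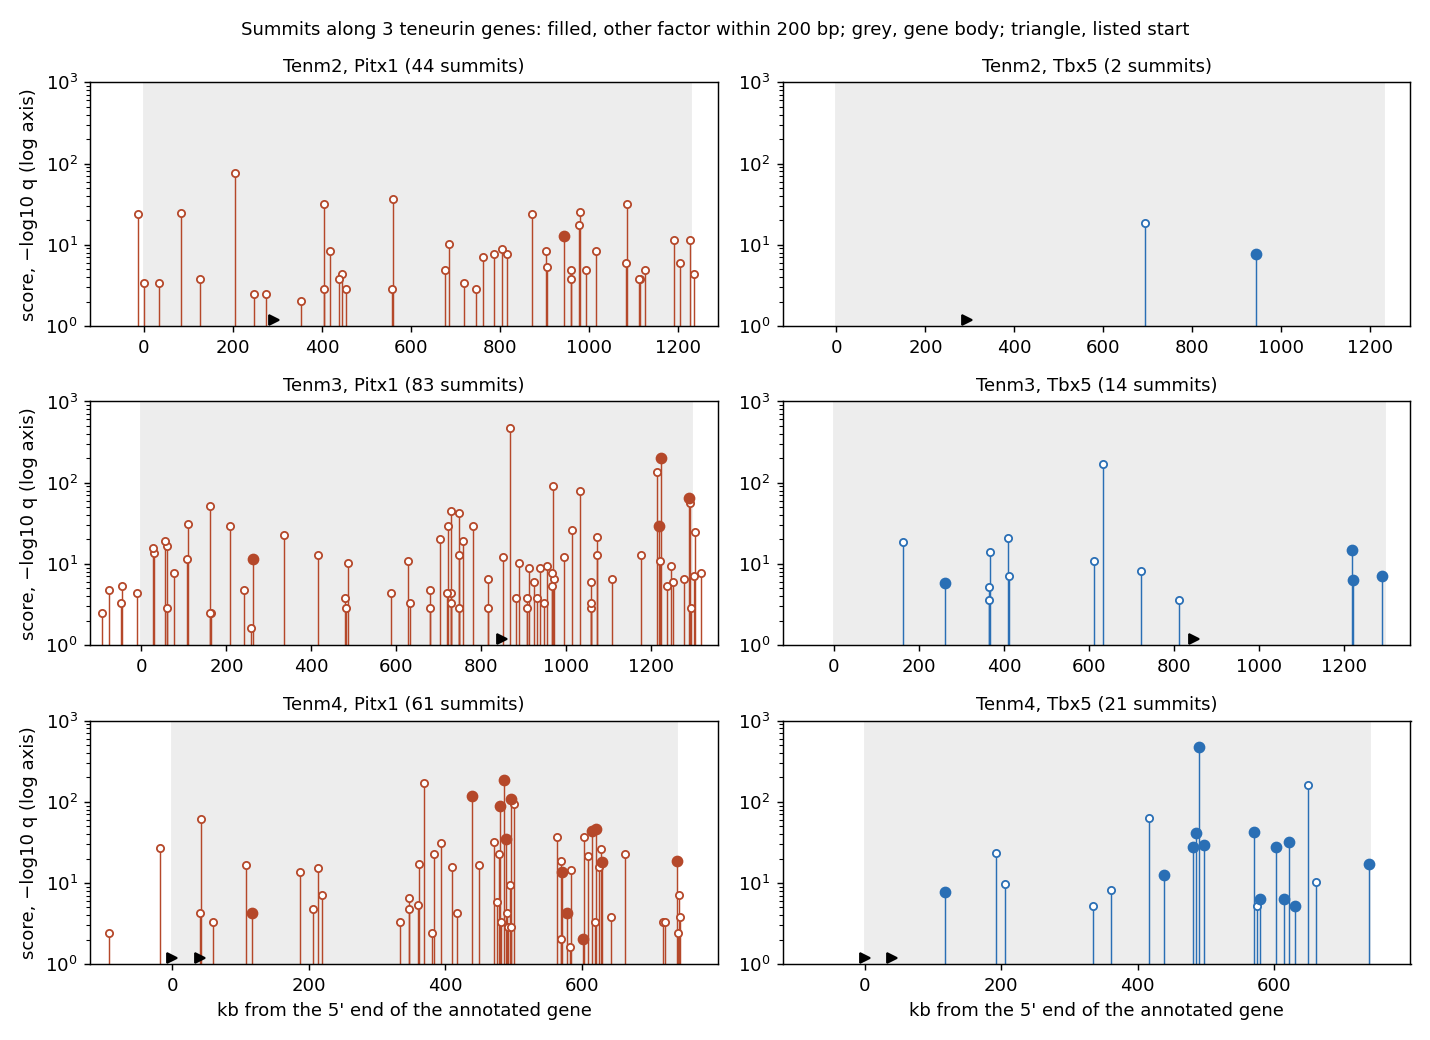
Each summit of Tenm2, Tenm3 and Tenm4 by its distance in kb from the 5′ end of the annotated gene (horizontal axes) and its deposited score, −log10 q, on a log axis, for Pitx1 (left) and Tbx5 (right). Filled points have a summit of the other factor within 200 bp, grey marks the gene body and triangles the listed starts; 13 of the 18 shared sites stand at Tenm4, mostly in its 3′ part.

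A larger share of the Pitx1 summits lay in clusters at Tenm3 and Tenm4 than at Tenm2. Shares in clusters set by a fixed gap, spacings and window counts all depend on density. They are therefore not separate from the densities above, and arrangement apart from density was not tested. Taking as a cluster 3 or more summits with neighbours at most 10 kb apart, Tenm4 had 6 clusters with 39 of its 61 summits (63.9%) and Tenm3 had 12 with 45 of 83 (54.2%). Tenm2 had 2 clusters with 6 of 44 summits (13.6%), both of low scores, the highest being 4.84. With summits at or above the median score of the list, there were 3 clusters at Tenm4, 3 at Tenm3 and 0 at Tenm2. Over all long-domain genes 36.4% of Pitx1 summits lay in such clusters. The median spacing of neighbouring Pitx1 summits was 5.24 kb at Tenm4, 9.34 kb at Tenm3 and 19.8 kb at Tenm2. The 100 kb window with most Pitx1 summits held 17 at Tenm4, 14 at Tenm3 and 8 at Tenm2, against a median of 5 over the long-domain genes. Tbx5 summits formed 3 clusters at Tenm4, 1 at Tenm3 and none at Tenm2. They held 10 of 21 Tbx5 summits at Tenm4 (47.6%) and 3 of 14 at Tenm3 (21.4%), against 9.05% of Tbx5 summits over the long-domain genes.

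The largest cluster was a stretch of 29.1 kb in Tenm4, from position 96643379 to 96672444, which lies 472 to 501 kb from the 5′ end. It held 13 Pitx1 summits with a median score of 23.0, and 4 Tbx5 summits with scores of 28.2, 41.6, 473.7 and 29.1. All 4 lay 38 bp or less from a Pitx1 summit. Further along, more clusters of Tenm4 held summits of both lists. One had 7 Pitx1 summits from 96734834 to 96755898 with 3 Tbx5 summits. Another had 9 Pitx1 summits from 96773658 to 96801443, 4 of them shared with Tbx5 in the sense defined below. The second of these ends inside Gm15413, a long noncoding RNA gene within Tenm4 that held 4 Pitx1 and 2 Tbx5 summits. The last, from 96910762 to 96915946, had 4 Pitx1 summits and 1 Tbx5 summit. The largest clusters of Tenm3 had 5 Pitx1 summits each, and 1 of them, from 48220941 to 48233102, runs across the 3′ end of the gene. Its highest score was 64.1. Mir708, a microRNA gene inside Tenm4, had its nearest Pitx1 summit 19.2 kb away and its nearest Tbx5 summit 38.6 kb away.

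Some summits at these genes ranked among the strongest of either list. The highest Pitx1 score, 470.3 (rank 24 in the list), was in Tenm3 at position 48655872, and lies 18.8 kb downstream of the listed start. The Tbx5 summit nearest to it was 55270 bp away. The next Pitx1 summits of Tenm3 scored 200.2 at 48300398 and 134.3 at 48309314, both in the 3′ part. The strongest Pitx1 summits of Tenm4 scored 184.6 at 96657283, 172.0 at 96540798 and 116.3 at 96610000. Those of Tenm2 were lower, at 77.6 (rank 1903) at 37031672, 36.4 at 36677681 and 31.7 at 36150934.

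The highest Tbx5 score, 473.7 (rank 13), was in Tenm4 at position 96660953. The next in Tenm4 were 160.6 at 96820533 and 63.0 at 96587617. In Tenm3 the highest Tbx5 scores were 170.4 at 48890577, 21.1 at 49112555 and 18.6 at 49360870, so that 1 summit stood far above the other 13. The 2 Tbx5 summits of Tenm2 scored 18.6 at 36543616 and 7.65 at 36293110. In Tenm4 the strongest Pitx1 and the strongest Tbx5 summit stood in the same cluster, 486 and 490 kb from the 5′ end. In Tenm3 they stood apart, 867 and 632 kb from the 5′ end.

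The median scores at Tenm4 were above those of the lists, though the counting intervals below hold the shares of the lists. The median Pitx1 score was 13.6 at Tenm4, 7.67 at Tenm3 and 5.65 at Tenm2, against 7.07 over the whole list. Scores of at least 35.45, met by 10.2% of the whole list, were found at 11 of 61 Pitx1 summits of Tenm4 (18.03%, 95% interval 9.36 to 30.0), 10 of 83 of Tenm3 (12.0%, 5.93 to 21.0) and 2 of 44 of Tenm2 (4.55%, 0.555 to 15.5). All these intervals hold the share of the whole list. The median Tbx5 score was 17.0 at Tenm4 and 7.65 at Tenm3, against 8.29 over the whole list. At or above the list's median lay 15 of 21 Tbx5 summits of Tenm4 (71.4%, 47.8 to 88.7) and 7 of 14 of Tenm3 (50%, 23.0 to 77.0), against 51.6% of the whole list. For Pitx1 there were 35 of 61 at Tenm4 (57.4%, 44.1 to 70.0), against 50.6% of the whole list. These intervals too hold the shares of the lists.

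**Figure D3:**
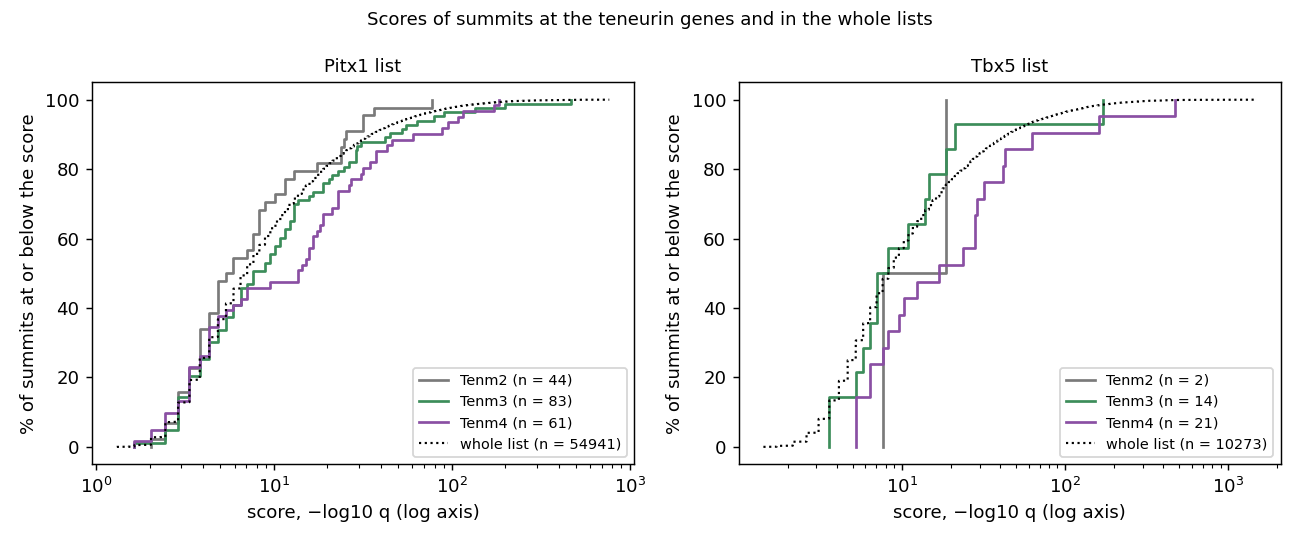
Share of summits at or below each score (vertical axes, in %) against the deposited score, −log10 q, on a log axis, for Pitx1 (left) and Tbx5 (right). Coloured steps are the summits of Tenm2, Tenm3 and Tenm4 and the dotted line is the whole list; the Tenm4 steps run to the right of the dotted line through most of both panels.

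Sites where summits of both lists coincide were concentrated in Tenm4. The lists come from different limbs and stages, so such a site does not show both factors bound in the same cells. A Tbx5 summit with a Pitx1 summit within 200 bp was called shared, and 8.8% of all genes and 57% of the long-domain genes had one. Of 21 Tbx5 summits at Tenm4, 13 were shared (61.9%, 95% interval 38.4 to 81.9), of 14 at Tenm3 4 (28.6%, 8.39 to 58.1) and of 2 at Tenm2 1. Together these are 18 of 37 (48.6%, 31.9 to 65.6). The share was 3023 of 7881 (38.4%) at all other genes and 41.5% over the long-domain genes, both inside the interval. The interval of Tenm4 alone also holds the share over the long-domain genes. Seen from the Pitx1 list, 13 of 61 summits at Tenm4 (21.3%, 11.9 to 33.7), 4 of 83 at Tenm3 (4.82%, 1.33 to 11.9) and 1 of 44 at Tenm2 (2.27%, 0.0575 to 12.0) were shared. At all other genes it was 6.78%, and over the long-domain genes 8.98%. Tbx5 summits of Tenm4 had their nearest Pitx1 neighbour at a median of 94 bp and those of Tenm3 at 2022 bp. The median was 603 bp at all other genes and 443.5 bp over the long-domain genes. Shares and distances depend on how many summits of the other list a gene holds, so they are not separate from the densities above. Per 100 Pitx1 summits there were 34.4 Tbx5 summits at Tenm4, 16.9 at Tenm3 and 4.55 at Tenm2. At other genes there were 17.7, and over the long-domain genes 21.65. Sharing apart from density was not tested.

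The shared sites of Tenm4 paired strong and weak summits in every combination. The strongest Tbx5 summit (473.7) lay 38 bp from a Pitx1 summit of 34.5, and the strongest Pitx1 summit (184.6) lay 27 bp from a Tbx5 summit of 41.6. Further pairs of high scores were at 96667785, with Tbx5 29.1 and Pitx1 108.8 at 35 bp, and at 96652228, with Tbx5 28.2 and Pitx1 88.1 at 28 bp. At 96609920 a Tbx5 summit of 12.4 lay 80 bp from a Pitx1 summit of 116.3. By contrast, a Tbx5 summit of 28.2 at 96773603 lay 55 bp from a Pitx1 summit of 2.03, close to the lowest score of that list, and one of 42.6 at 96742453 lay 119 bp from a Pitx1 summit of 13.6. At 96793017 Tbx5 scored 31.9 and Pitx1 46.2 at 21 bp.

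The other 5 pairs of Tenm4 had Tbx5 scores of at most 17.0. They lay at 96288161 (Tbx5 7.65, Pitx1 4.32), 96749996 (6.41 and 4.32), 96785993 (6.41 and 43.2), 96801458 (5.23 and 18.1) and 96910822 (17.0 and 18.9), the last at the 3′ end of the gene. At Tenm3 the Pitx1 scores of all 4 shared sites were above the median of the whole Pitx1 list, and 1 of the 4 Tbx5 scores was above that of the Tbx5 list. The sites lay at 48300246 (Tbx5 6.41, Pitx1 200.2), 48233159 (7.02 and 64.1), 48304419 (14.7 and 29.0, 2 bp apart) and 49261197 (5.81 and 11.54). The shared site of Tenm2 was at 36293110 (7.65 and 12.9).

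**Figure D4:**
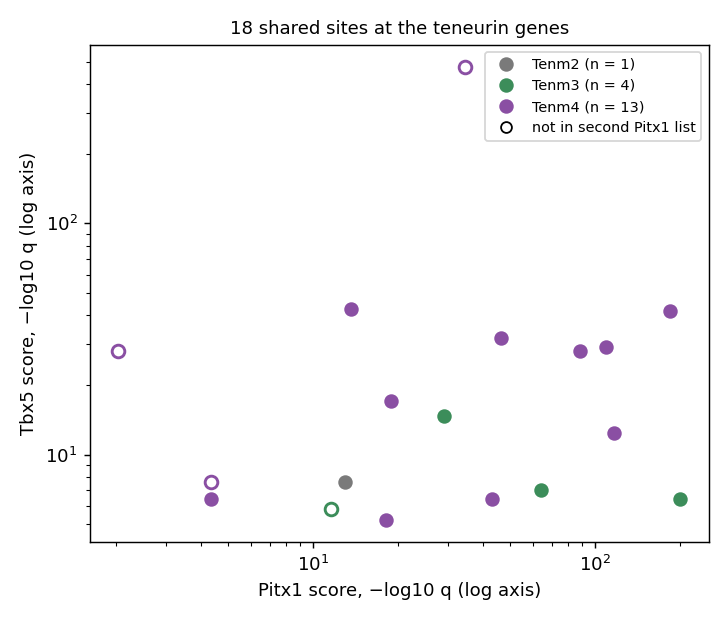
Tbx5 score (vertical axis) against Pitx1 score (horizontal axis), both −log10 q on log axes, for the 18 shared sites of Tenm2 (1), Tenm3 (4) and Tenm4 (13). Open points are sites whose Pitx1 summit is not in the second Pitx1 list, among them the site with the highest Tbx5 score, 473.7.

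The 200 bp limit decided some cases. The pairs just within it, both at Tenm3, were 161 and 152 bp apart, and those just beyond it were 291 and 311 bp apart at Tenm3 and 301 bp apart at Tenm4. The pair at 311 bp was the strongest Tbx5 summit of Tenm3 (170.4), whose Pitx1 neighbour scored 3.35, and a pair at 414 bp in the same gene joined a Tbx5 summit of 18.6 to a Pitx1 summit of 52.3. Within 500 bp the shared share at the 3 genes was 59.5%. The strongest Pitx1 summits were otherwise often without Tbx5, as the 470.3 of Tenm3 and the 172.0 of Tenm4 show, and all 3 of the strongest of Tenm2 were at least 134065 bp from any Tbx5 summit. At the 3 genes the 18 shared Pitx1 summits had a median score of 31.8 and the 170 others one of 6.78. By gene, the shared median was 34.5 at Tenm4 (13 summits) and 46.6 at Tenm3 (4), and the 1 at Tenm2 scored 12.9. The same medians are not given here for other genes, so this difference is not shown to be particular to the teneurins.

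A second deposited Pitx1 list of 17783 summits repeats part of the longer list, and the sources used here do not say how it was chosen. It held 27 of 61 Pitx1 summits of Tenm4 (44.3%, 95% interval 31.6 to 57.6), 30 of 83 of Tenm3 (36.1%, 25.9 to 47.4) and 14 of 44 of Tenm2 (31.8%, 18.6 to 47.6). Together this is 71 of 188 (37.8%, 30.8 to 45.1), against 30.9% of summits at other genes. The second list keeps mostly high scores, so the shares were also read in 10 score classes. With the shares of all other summits in the same classes, the 188 summits would give 67.8 (36.05%), and the 3 genes singly 25.9 for Tenm4, 29.7 for Tenm3 and 12.1 for Tenm2. In the highest class all 23 summits of the 3 genes were kept, against 93.6% of the other summits. In the fourth class, at scores of 4.36 to 5.37, none of 14 was kept, against 12.6% of the others.

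Of the 18 shared Pitx1 summits, 14 were in the second list. The highest-scoring Pitx1 summit of the 3 genes that it left out was the 34.5 at 96660991 in Tenm4, which is the partner of the strongest Tbx5 summit. The next left out scored 31.7 at 96643379 in Tenm4, in the same cluster, and 29.2 at 48800202 in Tenm3.

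**Figure D5:**
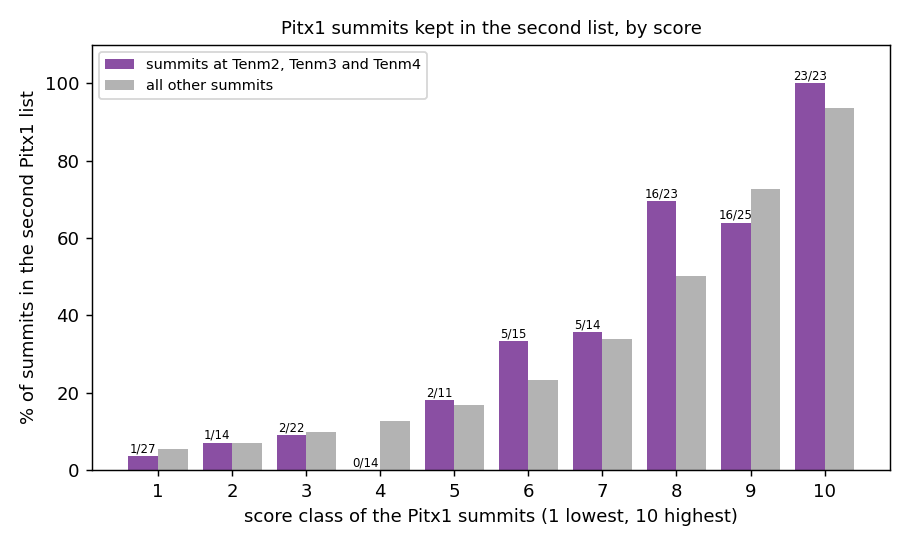
Share of Pitx1 summits that the second list holds (vertical axis, in %) by score class, 1 lowest and 10 highest (horizontal axis), for the 188 summits of Tenm2, Tenm3 and Tenm4 (purple, with counts) and for all other summits (grey). The grey bars climb with the score to 93.6% in the highest class; the purple bars climb too, to 23 of 23, with dips in classes 4 and 9.

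The deserts on the 5′ side held further summits beyond the 100 kb limit, which the counts above leave out. The farthest Pitx1 summit within the limit was 93.2 kb from Tenm3 (score 2.45) and 92.9 kb from Tenm4 (2.45), and the first beyond it lay 180.5 kb from Tenm3 (9.54), 336.5 kb from Tenm4 (2.89) and 295.5 kb from Tenm2 (1.64). Further out, where the gene was still the nearest protein-coding one, lay 19 Pitx1 summits for Tenm2, 22 for Tenm3 and 16 for Tenm4, with highest scores of 125.3, 58.7 and 84.6. The summit of 125.3 lay 1589 kb from Tenm2 and scored above any summit assigned to that gene. Tbx5 had none there for Tenm2, 4 for Tenm3 and 3 for Tenm4, of which 2 were shared, the strongest with a score of 37.6 at 437 kb.

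The genes of the proteins that teneurins work with varied widely among themselves. All 11 partner genes examined had Pitx1 summits, against 54.5% of all genes and 96.6% of the long-domain genes. Tbx5 summits were found at 7 of them, against 18.7% and 81.5%. The 11 genes held 148 Pitx1 and 30 Tbx5 summits in all, and 14 of the Tbx5 summits were shared. The median density ratio over the 11 was 1.99 for Pitx1, against 0.410 over all genes and 0.671 over the long-domain genes. For Tbx5 it was 1.65, against 0 and 0.759. Only 3 of the 11 have domains of at least 500 kb, so neither reference matches them in length. Tenm1, the fourth teneurin, on the X chromosome, held 2 Pitx1 summits, the higher with a score of 2.89, but none for Tbx5, over a domain of 985.1 kb. Its Pitx1 ratio of 0.0866 (0.0105 to 0.313) lay below the intervals of all 3 other teneurins. That ratio is to the domains of all chromosomes, and no density of the X chromosome alone is given here. The Tbx5 summit nearest to the listed start of Tenm1 lay 8788 kb away, so the low values may not be particular to this gene.

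Of the latrophilin genes, Adgrl3 held 47 Pitx1 summits (ratio to all domains 1.99, interval 1.46 to 2.64) and 10 Tbx5 summits (2.39, 1.15 to 4.40), 4 of them shared. Its strongest Tbx5 summit scored 176.0 at chromosome 5 position 81738853 and its strongest Pitx1 summit 82.2 at 81599855. Adgrl2 held 21 Pitx1 summits (ratio 2.40, 1.48 to 3.66) and 5 Tbx5 summits (3.23, 1.05 to 7.53), 3 of them shared. Its intervals and those of Adgrl3 overlapped those of Tenm3 for both factors. Adgrl1 held 3 Pitx1 summits and none of Tbx5. The Flrt genes encode proteins that bind latrophilins. Flrt2 held 11 Pitx1 summits, the strongest with a score of 118.9 at chromosome 12 position 95850517, and 2 Tbx5 summits. Flrt1 held 9 and none, and Flrt3, in a domain of 13.3 kb, held 5 and 1. Unc5 genes encode netrin receptors that also bind Flrt proteins. Unc5c held 27 Pitx1 and 7 Tbx5 summits, 5 of them shared, with highest scores of 115.1 and 157.8. Unc5b held 10 and 3, Unc5d 9 and 2, and Unc5a 4 and none.

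The protein-coding genes next to the 3 teneurins have domains of 119 to 157.1 kb and held between 0 and 5 Pitx1 summits. Next to Tenm3, Dctd, an enzyme gene of nucleotide metabolism, had 5 for Pitx1 and 4 for Tbx5. Per Mb of domain this is 36.01 for Pitx1 (95% interval 11.7 to 84.0) and 28.8 for Tbx5 (7.85 to 73.8), and both intervals hold the densities of Tenm3 and Tenm4. On its other side, Aga had 2 for Pitx1 alone (13.9 per Mb, 1.69 to 50.4). Next to Tenm2, Wwc1 had 3 for Pitx1 alone (19.1 per Mb, 3.94 to 55.8), and Mat2b had none of either. Next to Tenm4, Nars2 had 3 for Pitx1 alone (21.1 per Mb, 4.35 to 61.6), and Gm15501 had none of either.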

How the data were processed

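Pitx1 ChIP-seq of hindlimb buds and Tbx5 ChIP-seq of forelimb buds were each deposited as 1 sample, as lists of summits on mm10 with a score. MACS2 2.1.1.20160309, whose name is also in the peak names, stands in the submitters' processing notes beside HOMER, Bowtie2 2.2.6 and Bowtie 1.1.2. The deposited score was read as −log10 of the q-value, as MACS2 writes it. The series holds an input sample for each of these limbs and stages, but the sources used here do not say whether it served as control. They give no pooling or later filter, and nothing gives the reads behind a peak.

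From these lists, summits were assigned to the nearest protein-coding gene of RefSeq GRCm38.p6 within 100 kb, the shortest gene taking a summit inside several. Density was divided by domain length, with exact Poisson intervals for counts and exact Clopper-Pearson intervals for shares (95%, scipy 1.17.1, pandas 2.3.3). Assignment and distances were tested on simulated data. All 3 members and 9 of 11 partners had a promoter entry in RefSeq. Named summits are the 3 highest scores per gene and list, shared sites, largest clusters and those nearest a start; other summits, noncoding genes and clusters named were chosen after their values were seen. Members and lists were chosen with earlier results of these data known. Exons, sequence at summits and protein sequences were not used here.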

Additional observations from a re-analysis of the deposited data

How the results depend on the processing

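Density ratios under 42 alternatives stayed inside the counting interval of the reported value in 39. They ran from 1.28 to 1.49 for Pitx1 at Tenm2, 2.2 to 3.18 at Tenm3 and 2.88 to 5.6 at Tenm4. For Tbx5 they ran from 0.314 to 0.409 at Tenm2, 2.05 to 3.20 at Tenm3 and 5.14 to 8.30 at Tenm4. The Pitx1 interval of Tenm2 reached below 1 with gene bodies (from 0.936) and with assignment within 20 kb (0.982). It also did so with the upper scores (0.783), the second list (0.785) and the cut list (0.619), and stayed above 1 under the others. With the Pitx1 list cut to as many of the highest scores as the Tbx5 list has, the Pitx1 ratio was 3.18 at Tenm3 and 5.6 at Tenm4, and with the second Pitx1 list it was 4.33 at Tenm4. The cause was not tested. The shared share of Tbx5 summits was 27% with the cut Pitx1 list, which has fewer summits to meet, and 37.8% to 64.9% under the 6 other alternatives. The share of Pitx1 summits held by the second list was 65.0% for those at or above the median score, since that list keeps mostly high scores. Pitx1 clusters at Tenm2 numbered 2 as reported, 0 with a gap of 5 kb, 4 with 20 kb, and 0 with summits at or above the median score. With such summits there were 3 at Tenm3 and 3 at Tenm4, against 12 and 6 as reported. No paired analysis was possible because each factor has 1 sample. Depth is unknown, so list lengths, and counts of the 2 factors, cannot be set against each other as amounts of binding.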
